A study of Mus musculus with 9 samples.

Results

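The G1 cyclins and their kinases were taken as 8 genes by name: the D-type cyclins Ccnd1, Ccnd2 and Ccnd3, the E-type cyclins Ccne1 and Ccne2, and the kinases Cdk4, Cdk6 and Cdk2. All 8 were found among the 19769 genes of the RNA-seq table, and all 8 were among the 11870 genes that were tested. RNA-seq compared fibroblasts cultured from mid-gestation mouse embryos (MEFs) that had been sorted for a low or a high level of MYC, called low-MYC and high-MYC cells, with 2 technical replicates per group. Both groups carried the Myc-Egfp+/+ alleles, which encode a MYC-GFP fusion, both had received the proteasome inhibitor MG-132 (20 µM, 6 h), and both were sorted by GFP intensity and then seeded overnight. The groups therefore differ by the gate on MYC-GFP protein, and neither was free of proteasome inhibition, which also blocks the breakdown of cyclin proteins. According to the methods the gates were set to a similar mean forward scatter. TACh-seq sequences DNA released from accessible chromatin by the nuclease Cyanase (3 min of digestion). It was made from wild-type MEFs and from MEFs that lack Fubp1 and received siRNA to Fubp2 (4 samples). The reads are listed in a single table whose columns name no sample. FUBP1 ChIP-seq (1 sample) is listed as 166 peaks, all on chromosome 15, which holds 0 of the 8 genes. The paper describes broad FUBP1 binding across many other genes and reports more peaks than this list holds. The list therefore cannot show whether FUBP1 binds at the G1 cyclin and kinase genes.

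Progression through G1 is driven by cyclins, which have no catalytic activity of their own, and by the cyclin-dependent kinases that they switch on. D-type cyclins accumulate when growth factors are present and bind CDK4 and CDK6, which phosphorylate the retinoblastoma protein and so release E2F transcription factors. E-type cyclins are themselves E2F targets and bind CDK2, which completes this phosphorylation and helps to start DNA replication. In fibroblasts, cyclin D1 is the classical sensor of serum, and MYC is known to act on several of these genes, Cdk4 and Ccnd2 among them.

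The bases before the annotated start are shown for the 4 genes whose TACh-seq reads, described further on, were densest at or beside a RefSeq start. Of the 8 genes, 5 matched the RefSeq promoter table (GRCm38.p6), with 6 entries, and the remaining genes were Ccnd1, Ccnd2 and Ccne2. Each sequence gives the 250 bases before the start, 5′ to 3′ on the strand of the gene. Capitals mark exact matches on either strand to any of 7 short motifs. CACGTG is the E-box to which MYC-MAX binds. E2F factors are known to bind sites such as TTCCCGC and, in some of their best studied target genes, the form TTGGCGC. The GC box, to which SP1 and related zinc finger proteins bind, is searched as GGGCGG. The core of a cAMP response element, CRE, is searched as TGACGT. AP-1 sites are searched as TGANTCA, and TATAAA is the TATA box.
Cdk4, plus strand, chr10:127063285-127063534: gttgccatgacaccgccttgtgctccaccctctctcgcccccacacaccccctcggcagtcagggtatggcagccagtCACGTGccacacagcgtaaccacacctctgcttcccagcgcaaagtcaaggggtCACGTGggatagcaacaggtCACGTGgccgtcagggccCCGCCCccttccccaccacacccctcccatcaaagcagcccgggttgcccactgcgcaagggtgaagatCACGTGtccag
Ccne1, minus strand, chr7:38107491-38107740: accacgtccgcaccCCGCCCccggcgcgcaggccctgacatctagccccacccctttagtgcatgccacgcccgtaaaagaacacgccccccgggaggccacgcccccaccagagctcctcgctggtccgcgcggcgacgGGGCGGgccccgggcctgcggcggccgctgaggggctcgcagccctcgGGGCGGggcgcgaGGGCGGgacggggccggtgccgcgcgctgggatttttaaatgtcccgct
Cdk2, minus strand, chr10:128705052-128705301: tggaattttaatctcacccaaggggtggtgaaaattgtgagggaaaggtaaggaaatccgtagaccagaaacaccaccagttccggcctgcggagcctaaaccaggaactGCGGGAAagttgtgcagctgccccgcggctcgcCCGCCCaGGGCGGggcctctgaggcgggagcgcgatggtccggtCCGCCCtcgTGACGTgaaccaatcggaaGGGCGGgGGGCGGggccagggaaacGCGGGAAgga
Cdk6, plus strand, chr5:3343643-3343892: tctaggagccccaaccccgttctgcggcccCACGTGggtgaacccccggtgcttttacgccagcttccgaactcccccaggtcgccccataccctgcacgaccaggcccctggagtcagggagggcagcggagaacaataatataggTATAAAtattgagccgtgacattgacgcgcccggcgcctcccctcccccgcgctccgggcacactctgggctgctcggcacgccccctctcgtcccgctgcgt

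Cdk4 held 4 E-boxes, which begin at -172, -118, -98 and -11, where -1 is the base before the start. Of all 32851 promoters in the table, read over 250 bases before to 50 after the start, 7.15% held at least 1 E-box and 8 promoters (0.0244%) held 4 or more; this count was made after the matches in Cdk4 had been seen. Cdk6 held 1 E-box at -220 and 1 TATAAA at -103, a motif found in 13.6% of all promoters. Cdk2 held 2 matches to TTCCCGC, at -140 and -10, against 4.60% of all promoters with at least 1. Its CRE core lies at -54, and 7.51% of all promoters hold one. Cdk2 also held 5 GC boxes and Ccne1 4 before the start, and 35.7% of all promoters held at least 1 and 5.49% held 4 or more. The 250 bases of Ccne1 had a GC content of 76.0%, against a median of 52.4% over all promoters. TTGGCGC and TGANTCA, held by 2.45% and 7.81% of all promoters, were not matched in the entries of the members. Ccnd3 has 2 entries, with 2 and 1 GC boxes before the start, and the second also holds a CRE core at -28. Cdk4 holds a GC box at -80. A match is a description of letters and not of binding.

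The levels are FPK (fragments per kilobase of transcript) divided by the authors' spike-in score, so they are relative to the number of cells and may be compared between genes per length. In these bulk samples, fewer cells of a type and less RNA per cell cannot be told apart. Summed over all genes the normalized FPK was 46321 and 48291 in the low-MYC libraries and 102853 and 109090 in the high-MYC libraries. Read totals are not given, so depth is unknown. The commonest ratio to low-MYC replicate 1 among genes with a mean under 0.02 FPK was taken as the relative value of 1 read. It was 1.02 in low-MYC replicate 2 and 2.28 and 2.55 in the high-MYC libraries. The summed FPK divided by this value was 0.924 to 1.02 times that of low-MYC replicate 1. FPK is per transcript length, so this is a rough guide and not a read total. The cell type was checked with marker lists. All 12 fibroblast markers were detected, with summed FPK from 402 to 409 in low-MYC and from 980 to 1010 in high-MYC libraries, led by Vim. The summed FPK of 20 macrophage markers ran from 0.953 to 1.31 in low-MYC and from 30.7 to 32.0 in high-MYC libraries, a 27.7-fold ratio, with Cd68 the highest in low-MYC and Lyz2 in high-MYC cells. Of these markers Adgre1, C1qa and Tyrobp were at 0 in 1 low-MYC library. Their part in the values of the G1 genes was not tested. Endothelial markers, led by Kdr, summed to 0.173 to 0.328, epithelial markers, led by Krt19, to 1.15 to 2.61, neural markers, led by Nes, to 10.8 to 22.6 and muscle markers, led by Acta1, to 9.71 to 14.5, and no erythroid marker is in the table.

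Among the D-type cyclins, Ccnd1 (cyclin D1; chromosome 7, 144929931 to 144939925, minus strand, mm10) was at 19.5 and 20.6 FPK in the low-MYC libraries and at 58.1 and 61.0 in the high-MYC libraries. Ccnd2 (cyclin D2; chromosome 6, 127125162 to 127152193, minus strand) was at 15.1 and 15.9 FPK in low-MYC and at 36.0 and 38.3 in high-MYC libraries. Both are among the most abundant transcripts of these cells: 98.5% of genes in the table had a lower mean than Ccnd1 in low-MYC cells, and 98.1% a lower mean than Ccnd2. Ccnd3 (cyclin D3; chromosome 17, 47505051 to 47599691, plus strand) was far less abundant, with 0.387 and 0.374 FPK in low-MYC and 1.03 and 1.02 in high-MYC libraries. The libraries of the groups do not overlap for any of these cyclins. On this scale 97.1% of all genes tested were called higher in high-MYC cells, as described below. The lack of overlap therefore does not set these cyclins apart.

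The E-type cyclins were about an order of magnitude lower than Ccnd1. Ccne1 (cyclin E1; chromosome 7, 38097984 to 38107534, minus strand) was at 1.72 and 1.75 FPK in low-MYC and at 4.63 and 5.17 in high-MYC libraries. Ccne2 (cyclin E2; chromosome 4, 11191351 to 11204779, plus strand) was at 1.33 and 1.26 FPK in low-MYC and at 3.33 and 3.56 in high-MYC libraries. Every high-MYC value lay above every low-MYC value for both genes, which again does not set them apart from the 97.1% of genes called higher.

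The kinases spanned a wider range than the cyclins. Cdk4, the partner of D-type cyclins (chromosome 10, 127063534 to 127067920, plus strand), was at 25.4 and 24.9 FPK in low-MYC and at 57.8 and 59.3 in high-MYC libraries. Cdk6, the other partner of D-type cyclins (chromosome 5, 3341485 to 3531008, plus strand), was near the lower limit of the test, with 0.0983 and 0.103 FPK in low-MYC and 0.219 and 0.241 in high-MYC libraries. Cdk2, the partner of E-type cyclins (chromosome 10, 128697939 to 128705031, minus strand), was at 1.99 and 1.94 FPK in low-MYC and at 4.38 and 4.72 in high-MYC libraries. Cdk4 therefore stood far above Cdk6 in every library, with ratios within a library from 241 to 264. Again no kinase had overlapping groups, beside the 97.1% of all genes called higher. All of the members but Ccne1 overlap an annotated gene on the other strand, such as Tspan31 at Cdk4 (641 bp) and Ints8 at Ccne2 (5622 bp). The library kit keeps strand, but whether the counting used it is not given in the sources used here.

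**Figure D1:**
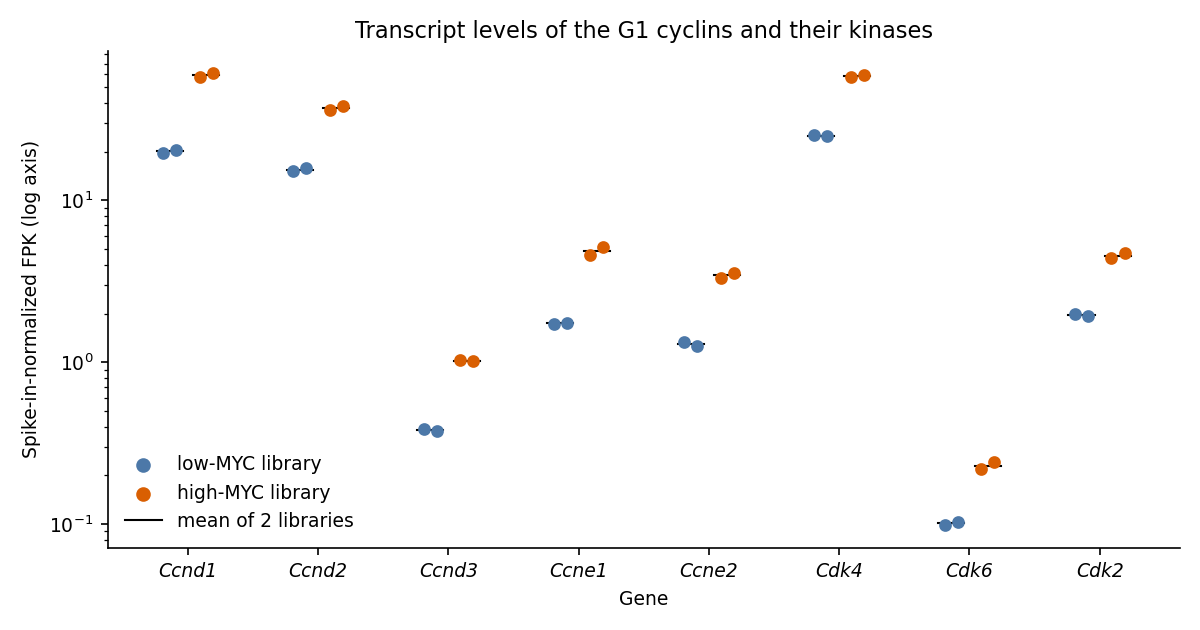
Spike-in-normalized FPK (log axis) of each of the 8 genes in the low-MYC (blue) and high-MYC (orange) libraries; points are libraries and lines are means of 2. Every high-MYC point lies above both low-MYC points of its gene, on a scale where 97.1% of all genes tested were called higher. The levels run from about 0.1 for Cdk6 to about 60 for Ccnd1 and Cdk4.

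In low-MYC cells the order of the mean levels was Cdk4, Ccnd1, Ccnd2, Cdk2, Ccne1, Ccne2, Ccnd3 and Cdk6, and no neighbours in this order overlapped. In high-MYC cells Ccnd1 (59.5 ± 2.05 FPK, SD, n = 2) stood beside Cdk4 (58.5 ± 1.05, SD, n = 2), and their libraries overlapped. Ccne1 (4.90 ± 0.380 FPK, SD, n = 2) stood beside Cdk2 (4.55 ± 0.241, SD, n = 2), also with overlapping libraries. The remaining order was the same in both groups. In low-MYC cells Cdk4 was at 25.2 ± 0.319 FPK and Ccnd1 at 20.1 ± 0.769, while Cdk2 was at 1.96 ± 0.0314 and Ccne1 at 1.74 ± 0.0193 (SD, n = 2 each).

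All 8 genes were higher in high-MYC cells, as were 97.1% of all genes tested (limma on log2(FPK + 0.1), called at an adjusted p under 0.01 after Benjamini-Hochberg adjustment). This count therefore does not set the G1 genes apart. Calls on this scale rest on the spike-in score, a single factor per library that all genes share. The p-values do not carry an error of that score common to the libraries of a group. Of the 8, 7 were called and at least 2-fold higher on this scale, against 55.1% of all genes. The added 0.1 lowers the fold change of scarce genes, so this comparison and that of the medians below depend in part on abundance. The change was largest for Ccnd1, with a log2 fold change of 1.56 (SE 0.0510, adjusted p = 1.04e-05 from limma). Ccne1 followed with 1.44 (SE 0.0634, adjusted p = 1.11e-05 from limma) and Ccne2 with 1.35. Ccnd2 (1.25), Ccnd3 (1.23), Cdk4 (1.21) and Cdk2 (1.17) lay between 1.1 and 1.3 on the log2 scale. Cdk6 had a log2 fold change of 0.72 (SE 0.0633, adjusted p = 9.57e-05 from limma), but the added 0.1 is as large as its low-MYC level. The median over the 8 genes was 1.24, beside 1.03 for all genes tested. Myc mRNA itself was at 9.81 and 9.86 FPK in low-MYC and at 20.3 and 20.5 in high-MYC libraries, a log2 fold change of 1.04.

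Without the pseudocount, the ratio of the group means was 2.96 for Ccnd1, 2.82 for Ccne1, 2.69 for Ccnd3, 2.66 for Ccne2, 2.39 for Ccnd2, 2.33 for Cdk4, 2.32 for Cdk2 and 2.28 for Cdk6. All 8 ratios lay above the median ratio of the genes tested, which was 2.26. The 5 cyclins had ratios from 2.39 to 2.96, and the 3 kinases from 2.28 to 2.33. This gap was not tested and rests on Ccnd2, since without low-MYC replicate 1 the ratio was 2.34 for Ccnd2 and 2.35 for Cdk4. Of the genes tested, 94.2% had a smaller ratio than Ccnd1 and 92.2% a smaller ratio than Ccne1. For Cdk4 this share was 62.1%, for Cdk2 60.5% and for Cdk6 54.4%, which places the kinases close to the median gene.

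**Figure D2:**
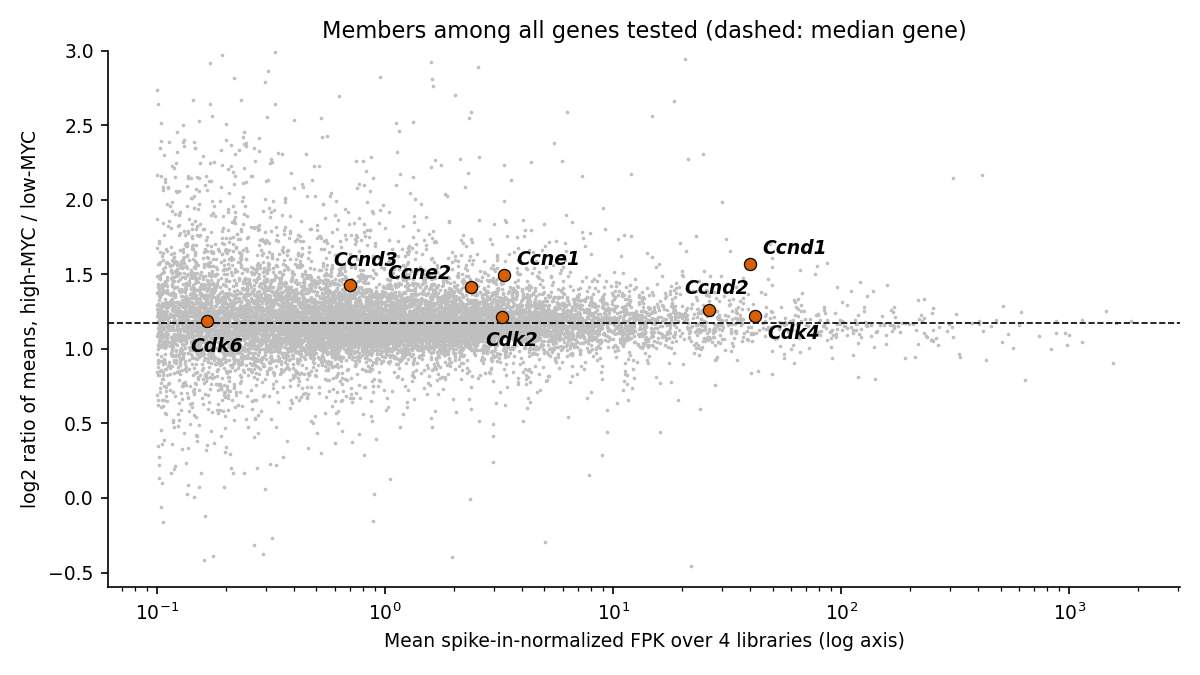
log2 ratio of the group means, high-MYC over low-MYC, against the mean spike-in-normalized FPK over 4 libraries (log axis) for 11810 genes tested (grey); 60 genes lie outside the range drawn. The 8 members (orange) all lie at or above the dashed line of the median ratio, with Ccnd1 and Ccne1 the farthest above it and the 3 kinases nearest to it.

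Because nearly all genes were higher per cell, the same fit was run after each library had been set to its own median gene, which asks whether a G1 gene moved more or less than that gene. Relative to the median gene, Ccnd1 rose by 0.51 on the log2 scale (SE 0.0313, adjusted p = 0.0060 from limma) and Ccne1 by 0.39 (SE 0.0359, adjusted p = 0.0074 from limma). These 2 of 8 compare with 4.46% of all genes called higher on this scale. Ccne2 had a value of 0.30 (adjusted p = 0.0117 from limma), Ccnd2 of 0.20 (0.0127), Cdk4 of 0.17 (0.0303), Ccnd3 of 0.18 (0.0540) and Cdk2 of 0.12 (0.0526), and none of these passed the threshold. Cdk6 had a value of -0.33 (adjusted p = 0.0084 from limma) and was the 1 of 8 called lower, against 8.26% of all genes.

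The call for Cdk6 came with the order of the steps. In this fit 0.1 was added before scaling, which lowers the fold change of scarce transcripts: the 1633 genes whose mean was under 0.2 FPK had a median of -0.37, and the 5608 genes whose mean reached 1 FPK had 0.07. With the libraries scaled first and 0.1 added afterwards, an alternative chosen after seeing the data, those medians were 0.01 and -0.0060. Cdk6 was then at 0.0049 (adjusted p = 0.935 from limma), Ccnd1 at 0.39 (0.0092) and Ccne1 at 0.30 (0.0182). Ccne2 was at 0.22 (0.0474), Ccnd3 at 0.20 (0.0656), Ccnd2 at 0.08 (0.147), Cdk4 at 0.04 (0.516) and Cdk2 at 0.03 (0.569; adjusted p from limma in each case), so of the 8 genes only Ccnd1 passed. Over all genes, 208 were then called higher and 64 lower, in place of 529 and 981. A fit without any of the 4 libraries leaves a single library in a group, so only its values are given here. In these fits Ccnd1 was between 0.49 and 0.54. For Ccne1 the value was between 0.36 and 0.43 and for Cdk6 between -0.34 and -0.33.

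**Figure D3:**
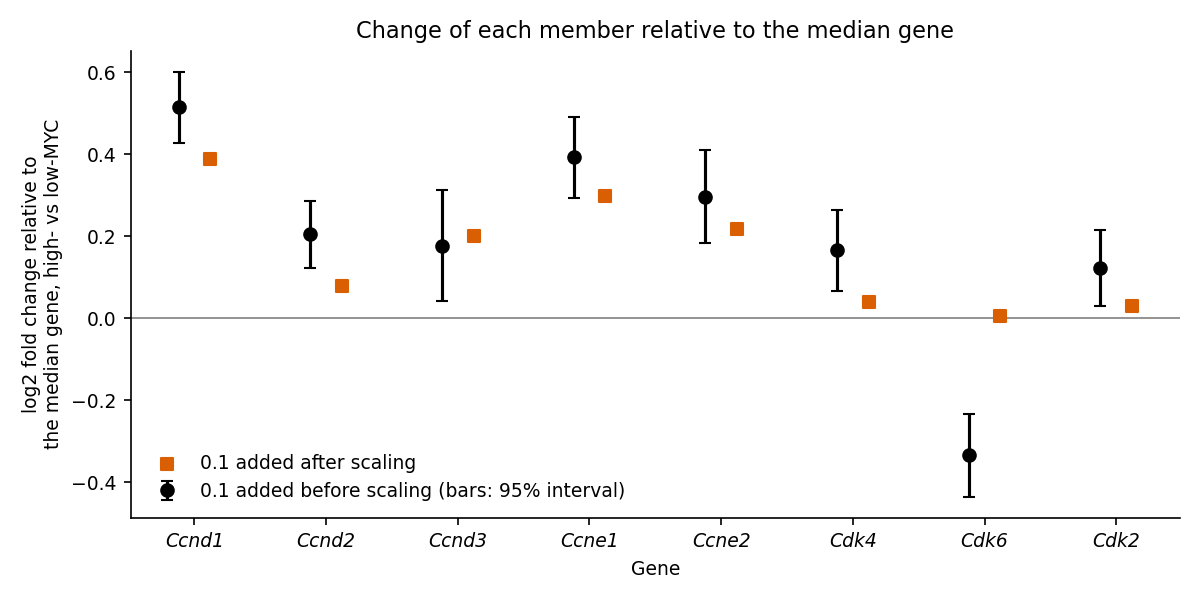
log2 fold change of each of the 8 genes relative to the median gene, high-MYC against low-MYC, with 0.1 FPK added before scaling (black, with 95% intervals from limma) or after scaling (orange). Ccnd1 and Ccne1 lie above 0 on both, at 0.51 and 0.39 and at 0.39 and 0.30, whereas Cdk6 lies at -0.33 on the first and at 0.0049 on the second.

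Shares and ratios within a library do not depend on the spike-in score. Of the summed FPK of the D-type cyclins, Ccnd1 made up 55.7% and 55.9% in the low-MYC libraries and 61.1% and 60.8% in the high-MYC libraries. Ccnd2 made up 43.2% and 43.1% in low-MYC and 37.8% and 38.2% in high-MYC libraries. The share of Ccnd1 was thus 5.13 percentage points higher in high-MYC cells, beyond the spread of the libraries, and Ccnd3 kept near 1% with overlapping groups. With 2 libraries against 2, an exact permutation test has a smallest two-sided p of 0.333, so these shares are given without a test.

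The summed cyclins stood higher beside their kinases in high-MYC cells, for the D-type and for the E-type. The D-type cyclins summed to 1.38 and 1.47 times the FPK of Cdk4 plus Cdk6 in the low-MYC libraries and to 1.64 and 1.68 times in the high-MYC libraries. The E-type cyclins summed to 1.54 and 1.55 times the FPK of Cdk2 in low-MYC and to 1.82 and 1.85 times in high-MYC libraries. The groups do not overlap for either ratio. The D-type ratio moved mainly with Ccnd1, whose group means had a ratio of 2.96, and not with Ccnd2, at 2.39 beside 2.33 for Cdk4. Within the E-type pair the split was closer, with Ccne1 at 56.5% and 58.1% of the sum in low-MYC and at 58.2% and 59.2% in high-MYC libraries, a difference of 1.37 percentage points beside SDs of 1.08 and 0.729. This difference was 0.607 points without low-MYC replicate 1, 2.14 without low-MYC replicate 2 and 0.857 without high-MYC replicate 2. Among the kinases Cdk4 held from 92.3% to 92.6%, Cdk2 from 7.02% to 7.35% and Cdk6 from 0.351% to 0.383% of the sum over all libraries, with overlapping groups for each.

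**Figure D4:**
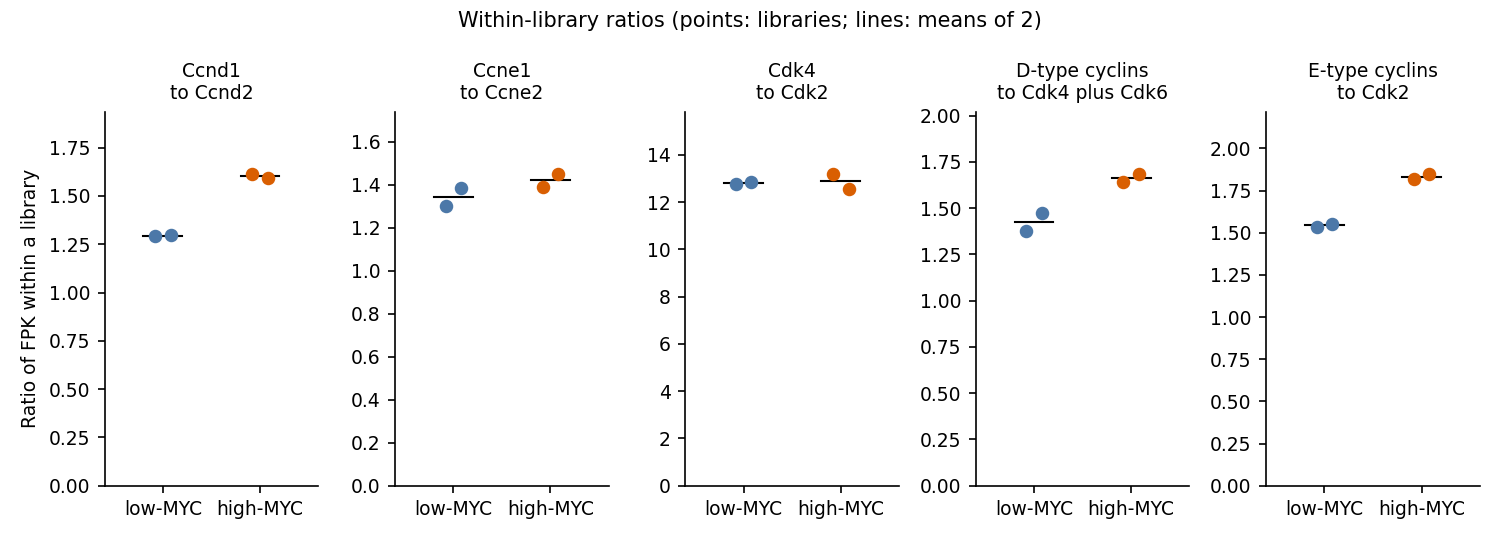
Ratios of FPK within each library for pairs of cyclins and kinases in low-MYC (blue) and high-MYC (orange) cells; points are libraries, lines are means of 2, and each axis starts at 0. Ccnd1 to Ccnd2 and both cyclin to kinase ratios are higher in both high-MYC libraries, while Cdk4 to Cdk2 overlaps near 12.8.

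The other genes of the pathway were taken from 6 lists. All 73 of their genes that could be tested were higher in high-MYC cells, beside 97.1% of all genes. Of the 73, Pola1, Tfdp2, Ambra1 and Mnat1 had low-MYC means from 0.0554 to 0.0959 FPK. These genes passed the limit of 0.1 on the mean of all libraries only through the high-MYC libraries. Their being higher is therefore no support. The lists are described relative to the median gene, where the median of all genes was -0.02. There 9 of the 73 were called higher and 5 lower by limma, beside the 4.46% and 8.26% of all genes given above. At an unadjusted p under 0.05, 32 were higher and 15 lower, beside 21.8% and 30.5% of all genes. With the libraries scaled first, 0 were called in either direction by limma, beside 1.75% of all genes called higher and 0.539% called lower. At an unadjusted p under 0.05, 27 were then higher and 3 lower, beside 17.3% and 15.9% of all genes. The counts of each list below are read against these shares.

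The CDK inhibitors (7 genes, all tested) include the direct brakes on the G1 kinases. Cdkn2b, which encodes the CDK4 and CDK6 inhibitor p15, was at 1.00 and 1.07 FPK in low-MYC and at 3.06 and 3.19 in high-MYC libraries. It was the only gene of this list called relative to the median gene, at 0.46 (adjusted p = 0.0070 from limma). Cdkn1a, which encodes p21 and was the most abundant inhibitor, was at 18.4 and 19.2 FPK in low-MYC and at 40.3 and 43.0 in high-MYC libraries, with a relative value of 0.10 that did not pass. Cdkn1c (p57) had the smallest change of the list, with a relative value of 0.07.

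The pocket proteins and E2F-DP factors are the substrates of the kinases and the transcription factors that they release. Of 13 genes 12 were tested, with E2f2 below the limit, and relative to the median gene 0 were called higher by limma and 2 lower, beside 4.46% and 8.26% of all genes. At an unadjusted p under 0.05, 2 were higher, beside 21.8% of all genes. Tfdp1, a DNA-binding partner of E2F, had the largest value at 0.27 (adjusted p = 0.0123 from limma). E2f4, the most abundant, had 0.06. Tfdp2 was called lower at -0.34, from 0.0906 and 0.0977 FPK to 0.207 and 0.230, and was at 0.02 with the libraries scaled first.

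The S phase entry genes under E2F (16, all tested) hold replication and nucleotide synthesis genes. Relative to the median gene 4 were called higher and 1 lower, beside 4.46% and 8.26% of all genes, and the list median was 0.22, or 0.14 with the libraries scaled first. Rrm2, a subunit of ribonucleotide reductase, was at 15.6 and 15.8 FPK in low-MYC and at 42.1 and 45.9 in high-MYC libraries, with a relative value of 0.43 (adjusted p = 0.0067 from limma). Pola1, a subunit of DNA polymerase alpha, was the 1 called lower at -0.38 and had 0.09 with the libraries scaled first. Among 22 other cyclins and CDKs, 20 were tested and 3 were called higher and 0 lower by limma (9 and 5 at an unadjusted p under 0.05, beside 21.8% and 30.5% of all genes), with a list median of 0.04. Ccnb1, the mitotic cyclin B1, had the largest relative value at 0.34 (adjusted p = 0.0070 from limma), Cdk8 of the Mediator kinase module the smallest at -0.20, and Ccng1 the highest level, from 57.1 and 59.0 to 137 and 151 FPK.

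The CDK activators and inhibitory kinases (8, all tested) had 1 gene called higher and 1 lower. Cdc25b, a phosphatase that activates CDKs, had a relative value of 0.27 (adjusted p = 0.0079 from limma). Mnat1, a subunit of the CDK-activating kinase, had -0.44 and was at -0.06 with the libraries scaled first. Cdc25a, the most abundant of the list and a phosphatase that acts on CDK2, had 0.01. Of 11 genes of cyclin and inhibitor turnover, 10 were tested, and 0 were called higher by limma (3 at an unadjusted p under 0.05, beside 21.8% of all genes) and 1 lower. Cks1b, a cofactor in the breakdown of p27, had both the highest level and the largest relative value, 0.23 (adjusted p = 0.0103 from limma). Ambra1, which directs D-type cyclins to breakdown, was the 1 called lower at -0.39, and was at -0.03 with the libraries scaled first.

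The gene with the most similar values was found for each member by the smallest Euclidean distance over its 4 log2 values. These values were not centred, so the distance follows the level of a gene as well as its change. Ccnd1 was nearest to Cd248 (distance 0.0790), Ccnd2 to Calu (0.0365), Ccnd3 to Slc20a2 (0.0638), Ccne1 to Nfe2l2 (0.0824) and Ccne2 to Mbtps1 (0.0793). Cdk4 was nearest to Cavin1 (0.0849), Cdk6 to Gstcd (0.0262) and Cdk2 to Pdk4 (0.0526). No member was the nearest gene of another, which on such a distance also reflects their different levels. Cd248, as the example, was at 20.2 and 20.5 FPK in low-MYC and at 60.5 and 61.5 in high-MYC libraries, values that lie within the range of Ccnd1 or just beside it.

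TACh-seq reads were counted by their midpoint within 1 kb of each gene start, out of 4881417 reads in the table. The labels of wild-type and Fubp1-deficient samples name the same table. Its own name holds wt1, which points to wild-type replicate 1, but no column assigns a read to a sample. Which samples its reads come from is therefore not certain, and the counts describe it as a whole and compare no conditions. Its name also holds the word peak, and whether reads outside called peaks are listed is not known. A count of 0 may therefore not mean that no read fell there, which also limits the shares and the correlation below. Cdk4 had 294 reads (95% exact Poisson interval 261 to 330, for counting error only), more than 88.7% of the protein-coding genes that were tested for expression. Ccne1 had 218 (190 to 249), Ccnd2 186 (160 to 215), Cdk2 146 (123 to 172), Ccne2 115 (94.9 to 138), Ccnd1 102 (83.2 to 124), Cdk6 69 (53.7 to 87.3) and Ccnd3 57 (43.2 to 73.9). The median of the 8 was 130.5, beside 140 for the 10245 protein-coding genes tested, of which 15.1% had 0 reads. The start of Ccnd1, among the most abundant transcripts, thus had fewer reads than the median gene, at a share of 31.9% of genes below it. Over these genes Spearman's rho between reads and mean FPK was 0.21, across genes that share 1 table and are not replicates.

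The reads lay at different places around the starts. For Cdk4, Ccne1 and Cdk2 the densest 200 bp began 200, 250 and 200 bp before the start, with 94, 82 and 45 reads, and so fell mostly on the sequences printed above. All 4 E-boxes of Cdk4 lie in its densest stretch. For Ccne2 the densest 200 bp began at -50 and held 32 reads. For Ccnd1 they began at -1850 with 77 reads, against 59 within 500 bp of the start itself. For Ccnd2 they began at 1100, where 46 reads lay near annotated transcript starts at 1133 to 1232. For Cdk6 they began at 2350 with 46 reads, around the RefSeq start at 2408, and 200 reads lay within 1 kb of that start. For Ccnd3 they began at -2850 with 84 reads, beside the start of the divergent gene Taf8, which lies 2759 bp away. The second RefSeq start of Ccnd3, 88416 bp into the gene, had 146 reads within 1 kb, and annotated transcript starts at 91017 and 91273 had 251 each.

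**Figure D5:**
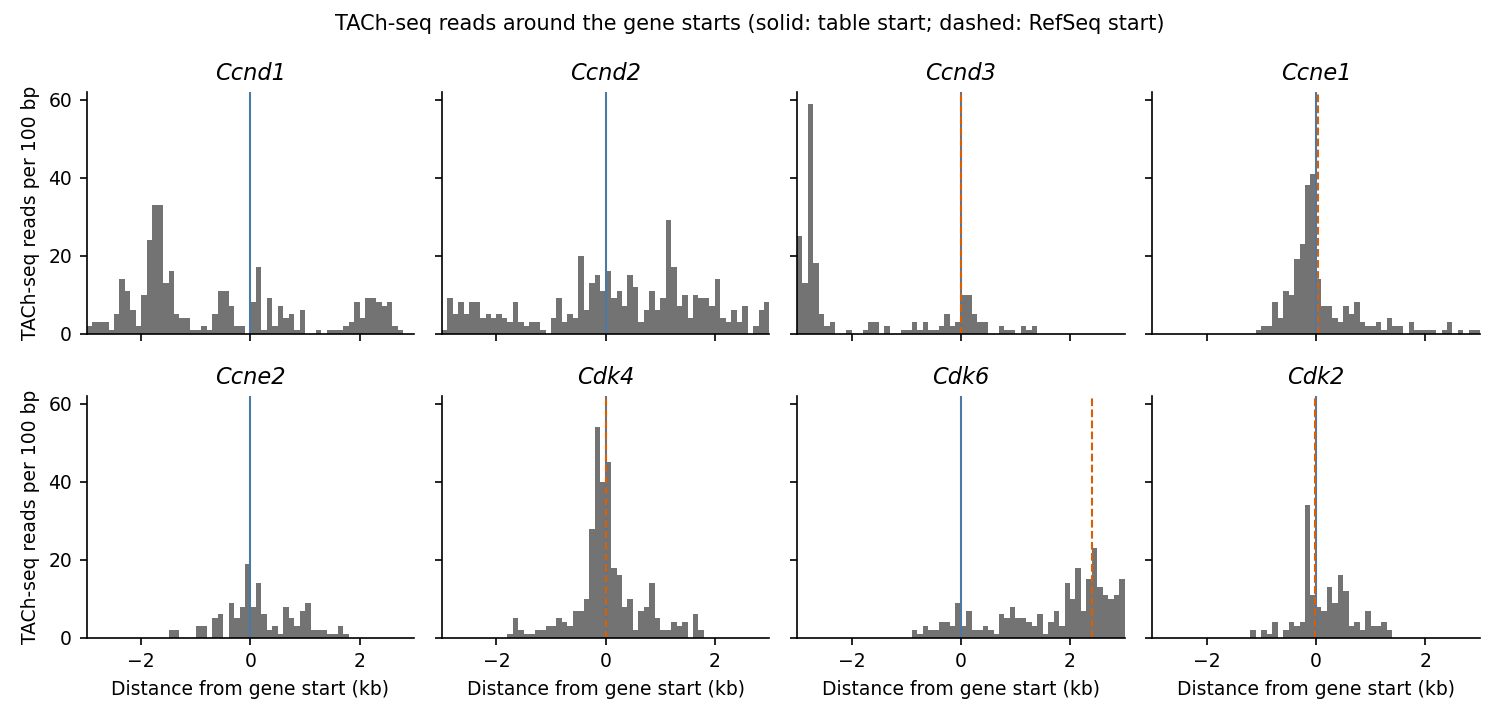
TACh-seq reads per 100 bp against the distance from the gene start (kb) for the 8 genes, with the start in the table as a solid line and the RefSeq start as a dashed line where one lies within 3 kb. Reads of Cdk4, Ccne1, Ccne2 and Cdk2 gather at the start, those of Ccnd1 and Ccnd3 peak before it, and those of Cdk6 peak at the RefSeq start 2408 bp into the gene.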

How the data were processed

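The tables analysed were RNA-seq of sorted MEFs (4 libraries), TACh-seq and FUBP1 ChIP-seq. For RNA-seq the authors trimmed reads, aligned them to mm10 with TopHat, quantified them with Partek and scaled FPK to spike-in transcripts added by cell count, which gives the deposited signal. This quantification splits reads shared by near-identical or overlapping genes. For TACh-seq and ChIP-seq the authors used Bowtie2 and SICER, also named in the submitters' processing notes; tool versions are not given in the sources used here. The deposited TACh-seq table gives positions and a mapping score per read, with no sample column. ChIP-seq gives peak positions only. Protein sequences were not analysed here.

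Genes whose mean FPK reached 0.1 were compared on the scale log2(FPK + 0.1) with limma 3.58.1 (lmFit, eBayes with trend) in R 4.3.3, with Benjamini-Hochberg adjustment over all genes tested, and again after subtracting the median log2 value of each library. Genes were called at an adjusted p under 0.01. Replicates are technical, so p-values compare these libraries and not independent cultures. The procedure was tested on simulated data, with noise and shifts added on the log2 scale. That test does not cover the order of the pseudocount and the scaling. Its noise was drawn independently for each gene and library, so it also does not cover offsets shared by a library or paired replicates. Gene starts are those of the table; 19624 of its gene names were found in GENCODE M21 on the same chromosome, 19519 of them with the same start. Genes named are the members, Myc, for each list the genes with the largest and smallest change and the highest level, the nearest gene of each member, and the highest markers. The members and lists were chosen with earlier results of these data known. Alternatives covered the pseudocount, filter, trend, scaling, replicate block, threshold, left-out libraries and the TACh-seq window. Remaining steps ran in Python 3.11.15 (pandas 2.3.3 with numpy 2.4.6; scipy 1.17.1; plots with matplotlib 3.10.9).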

Additional observations from a re-analysis of the deposited data

How the results depend on the processing

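On the spike-in scale all 8 G1 genes were called higher and 0 lower under every alternative in which they were tested; with a minimum mean of 1, Ccnd3 and Cdk6 were not tested and the other 6 were called higher. Over all genes 5596 were then called higher, since fewer genes were tested, and 45 of the listed pathway genes. Genes called lower numbered 5 at an adjusted p under 0.05, 8 with no filter and 6 to 8 with a library left out, in place of 3. Replicates share numbers across groups, and whether same-numbered libraries are paired is not given. Their deviations correlated at 0.081 over 11870 genes in 2 pairs. This correlation removes any offset common to all genes, so it cannot decide whether they are paired. Replicate 2 had the higher summed FPK in both groups. With the replicate block the SE on the spike-in scale was 0.0269 in place of 0.0510 for Ccnd1 and 0.0576 in place of 0.0633 for Cdk6. The 8 G1 genes stayed called on that scale and 5 genes were lower.

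Relative to the median gene the counts depend strongly on the processing. The replicate block called 0 genes higher and 0 lower, in the whole table, among the members and in the lists (limma; at an unadjusted p under 0.05, 2960 genes were higher and 3833 lower, and 7 members higher and 1 lower), and leaving out each library in turn called 0 members in either direction, 0 to 1 genes higher and 0 lower, and 0 listed genes (limma; at an unadjusted p under 0.05, 4 to 7 members were higher and 1 lower, beside 1643 to 2527 of all genes higher and 2602 to 3458 lower). At an adjusted p under 0.05, 5 members were higher, with 1862 genes higher and 2873 lower, and 26 and 13 in the lists. With scaling before the pseudocount 1 member was higher and 0 lower, with 208 genes higher and 64 lower and 0 in the lists, and Cdk6 turned to 0.0049. A pseudocount of 0.01 gave 1 member higher and 0 lower, 201 and 65 genes, and 0 in the lists, while a pseudocount of 1 gave 6 members higher, 4596 and 4664 genes, and 38 and 23 in the lists. With no filter 7 members were higher and 0 lower, with 4836 and 7072 genes, and 43 and 3 in the lists. A minimum mean of 1 left 0 members lower, 316 and 228 genes, and 4 and 1 in the lists. Scaling to the summed FPK gave 321 and 2533 genes, with 3 and 14 in the lists, and to the upper quartile 2321 genes lower, with 4 and 9 in the lists.

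Of the reads within 1 kb of the 8 starts, 1187 in all, 850 lay within 500 bp, 1656 within 2 kb and 2099 within 1 kb of any annotated transcript start. The added value before scaling accounts by construction for lower values of scarce genes; the cause of the other shifts was not tested. Without each library in turn the difference in share, high minus low, ran from 4.997 to 5.257 percentage points for Ccnd1, from 0.607 to 2.14 for Ccne1 and from -0.138 to 0.214 for Cdk4, which was at 0.038 with all libraries and turned sign without high-MYC replicate 1. Depth is unknown, and with 2 technical replicates per group the values cover the spread between libraries only.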
